A study of Homo sapiens with 4 samples.

Results

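The HOXB cluster genes are the 10 homeobox genes of human chromosome 17 that were read here on 4 bead arrays of colon cancer cells: HOXB1, HOXB2, HOXB3, HOXB4, HOXB5, HOXB6, HOXB7, HOXB8, HOXB9 and HOXB13. They were picked by name, as the probes whose platform annotation gives one of these symbols, and 11 probes out of 48803 carried one, HOXB3 having 2 and every other gene 1. In all 18665 genes had a named probe. The cluster was singled out with results of these arrays known, chiefly the high HOXB5 level in LvM3b cells and the lower HOXB8 level with miR-483. The levels below are therefore a description. Total RNA came from 4 cultures at about 70% confluence, 1 array each, so there was no replicate in any group, precision is limited by the number of arrays, and differences carry no p-value. The groups were LvM3b cells over-expressing miR-483, which the study's title gives as miR-483-5p, LvM3b cells over-expressing miR-551a, LvM3b control cells, and Ls-Parental cells. LvM3b is known from published work as a liver-selected derivative of a human colon adenocarcinoma line. The Ls-Parental culture is identified by its title and source name, while its cell line entry reads LvM3b. The labels do not say how the microRNAs were introduced or whether a culture was 1 clone.

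HOX proteins are transcription factors with a DNA-binding homeodomain, and they pattern the body axis from head to tail. Their genes lie in 4 clusters in the order in which they are used along the axis, so that HOXB1 at one end acts towards the head and HOXB13 at the other towards the tail. Neighbouring genes of a cluster are often switched on together, and adult intestinal epithelium keeps a region-specific HOX pattern. A pair of features of the HOXB cluster is shown as sequence because they bear on how HOXB genes are controlled. The first is a set of microRNAs. In the RefSeq annotation of GRCh38.p14 the cluster holds 3 microRNA genes: MIR10A between HOXB4 and HOXB5, MIR196A1 between HOXB9 and HOXB13, and MIR3185 between PRAC1 and HOXB13. MicroRNA miR-196a is known to direct cleavage of HOXB8 messenger RNA. Mature microRNAs were not measured here. A RefSeq mature sequence of each of these 3 microRNA genes follows, with the seed, bases 2 to 8, in capitals. Shown with them are miR-551a, which was over-expressed in a culture other than the miR-483 one, and its relative miR-551b. Also shown is miR-196b-5p, whose gene MIR196B lies on chromosome 7, outside the HOXB cluster. The mature miR-196a-5p has 2 loci, MIR196A1 being the one in the cluster.
hsa-miR-551a: gCGACCCAcucuugguuucca
hsa-miR-551b-3p: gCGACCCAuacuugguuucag
hsa-miR-10a-5p: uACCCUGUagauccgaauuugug
hsa-miR-196a-5p: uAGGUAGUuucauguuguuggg
hsa-miR-196b-5p: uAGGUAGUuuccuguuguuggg
hsa-miR-3185: aGAAGAAGgcggucggucugcgg
MicroRNAs miR-551a and miR-551b-3p share the seed CGACCCA, and miR-196a-5p and miR-196b-5p share the seed AGGUAGU. Of the 5 mature sequences that RefSeq lists for the 3 microRNA genes of the cluster, 0 had the seed of miR-551a. The seed of miR-483, the other over-expressed microRNA, was not compared, since the sequence source used here held no entry for it.

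The second is the promoter of HOXB1, whose protein is known in the mouse to act on its own gene together with PBX proteins. The 250 bases before its start, from RefSeq, lie at chr17:48531012-48531261 on the minus strand of GRCh38.p14. Capitals mark the HOX-PBX motif TGATNNAT, searched on both strands.
HOXB1 promoter: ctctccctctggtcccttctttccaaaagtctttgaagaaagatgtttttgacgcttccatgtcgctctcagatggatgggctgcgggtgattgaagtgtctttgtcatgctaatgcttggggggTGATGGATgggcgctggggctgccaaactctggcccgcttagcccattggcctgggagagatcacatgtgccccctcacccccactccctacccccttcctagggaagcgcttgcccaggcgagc
The motif occurred 1 time, starting 125 bases before the start of the gene. Of 35116 promoters of this length in the RefSeq table, 6.47% held it. HOXB1 was the 1 member of the cluster with an entry in that table, and the match is a description only.

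Of the 10 HOXB genes, 5 were detected on at least 1 array, at a detection p under 0.01, and 5 on none of the 4 arrays. Of the 18665 genes with a named probe, 10090 outside the cluster were detected on at least 1 array, so 5 of 10 is near the share of all genes. HOXB5 and HOXB7 were detected on all 4 arrays, HOXB8 on the 3 LvM3b arrays, HOXB1 on 3 arrays and HOXB6 on 1. The genes with a clear signal thus form one stretch of the cluster, HOXB5, HOXB7 and HOXB8, with HOXB6 between them close to the detection limit. HOXB2, HOXB3 and HOXB4 on one side and HOXB9 and HOXB13 on the other were not well above background. Each gene's level is set only against its own level on another array, since probes differ in brightness for reasons other than RNA amount.

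**Figure D1:**
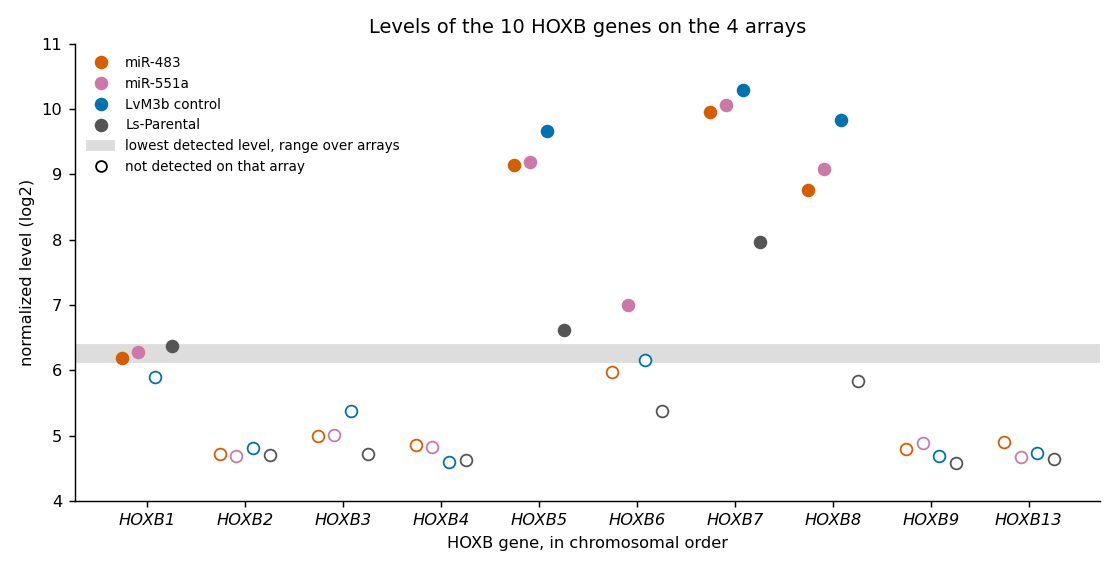
Normalized log2 level of each HOXB gene (genes on the horizontal axis in chromosomal order) on the miR-483, miR-551a, LvM3b control and Ls-Parental arrays. Filled points were detected, open points were not, and the grey band spans the lowest detected level of the 4 arrays, 6.13 to 6.38; HOXB5, HOXB7 and HOXB8 lie far above the band on the LvM3b arrays and much lower on the Ls-Parental array.

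HOXB5, whose protein helps to pattern foregut and lung in the mouse, had a deposited signal of 681.1 on the miR-483 array, 640.7 on the miR-551a array, 969.8 on the LvM3b control array and 174.4 on the Ls-Parental array. Its normalized log2 levels were 9.14 with miR-483, 9.19 with miR-551a, 9.67 in the LvM3b control and 6.61 in Ls-Parental. The 3 LvM3b arrays lay closer to each other than to the Ls-Parental array, which was the lowest. HOXB7, a regulator of cell proliferation and migration in several cancers, had signals of 1137.7 with miR-483, 1115.4 with miR-551a, 1445.2 in the LvM3b control and 315.7 in Ls-Parental. Its log2 levels were 9.95, 10.06, 10.30 and 7.97 on the same arrays in that order. HOXB7 was the only HOXB gene with a detection p of 0 on the Ls-Parental array.

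HOXB8, which keeps blood progenitors immature when over-expressed in mouse cells, had signals of 545.1 with miR-483, 601.2 with miR-551a, 1074.3 in the LvM3b control and 135.9 in Ls-Parental. The log2 levels were 8.77 with miR-483, 9.09 with miR-551a, 9.83 in the LvM3b control and 5.83 in Ls-Parental, where its detection p of 0.0171 missed the threshold. The HOXB8 level was thus clear in all LvM3b cultures and not well above background in Ls-Parental. HOXB6, the gene between HOXB5 and HOXB7, had signals of 151.5 with miR-483, 200.1 with miR-551a, 165.7 in the LvM3b control and 119.1 in Ls-Parental. Detection p-values of HOXB6 were 0.0132, 0.00264, 0.0158 and 0.0369 in the same order, so it passed on the miR-551a array alone at 0.01, but on all 4 arrays at 0.05.

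HOXB1, the hindbrain gene at the head end of the cluster, had signals of 161.5 with miR-483, 151.2 with miR-551a, 152.8 in the LvM3b control and 160.6 in Ls-Parental. These values sit at the detection limit on each array, with detection p-values of 0.00922, 0.00791, 0.0224 and 0.00527 in the same order. Its log2 levels were 6.18 with miR-483, 6.28 with miR-551a, 5.90 in the LvM3b control and 6.38 in Ls-Parental. HOXB1 thus had near-equal signals in both lines, unlike HOXB5, HOXB7 and HOXB8. Among the undetected genes, HOXB13, the most tailward gene, had signals of 86.4 to 106.8 and HOXB9 of 80.6 to 100.4. HOXB2, a hindbrain patterning gene, had 87.0 to 103.7 and HOXB4, which expands blood stem cells when over-expressed, 84.4 to 104.2. The brightest value of any undetected HOXB probe was 130.9, for one HOXB3 probe on the LvM3b control array (detection p 0.0632). The second HOXB3 probe had 94.8 to 116.4 over the 4 arrays, so the 2 probes concur that HOXB3 was not well above background. Across these arrays the lowest detected signals were 146.5 to 178.2.

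The comparison of the LvM3b control with Ls-Parental asks which genes differ between the liver-selected derivative and the parental line. On the background-corrected scale HOXB8 was at least 13.0-fold higher in the LvM3b control, against the detection limit of the Ls-Parental array, and the measured values were 15.9-fold apart. HOXB5 was 8.34-fold higher (3.06) and HOXB7 5.02-fold higher (2.33), both measured on both arrays. Omitting the background correction lowered these values to 7.05-fold for HOXB8, 4.95-fold for HOXB5 and 4.005-fold for HOXB7, and in the authors' processed values HOXB8 was 7.26-fold higher. Each "at least" value given here holds on the background-corrected scale only and is not a lower limit for uncorrected signals, which include the background. Of the 4 HOXB genes above background on either array, these 3 were at least 2-fold higher, where 3.07% of all 9817 genes were. No HOXB gene was at least 2-fold lower, where 2.74% of all genes were. The fourth gene, HOXB1, differed by -0.48, with the LvM3b control below its detection limit. The members detected had a median log2 difference of 2.69, beside -0.01 over all genes tested. Of all 9817 genes, 6 were as far up as HOXB8, itself included, 12 as far as HOXB5 and 40 as far as HOXB7. Since the cluster was chosen for this difference, these positions describe it and test nothing. In bulk RNA, fewer cells with a transcript and less of it per cell cannot be told apart.

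The other LvM3b cultures gave the same comparison with their own arrays, all against the single Ls-Parental array that they share. HOXB5 was 5.77-fold higher with miR-483 (2.53) and 5.99-fold higher with miR-551a (2.58) than in Ls-Parental. HOXB7 was 3.95-fold higher with miR-483 (1.98) and 4.27-fold higher with miR-551a (2.09). For HOXB8 the bounds on the background-corrected scale were at least 6.22-fold on the miR-483 array and at least 7.76-fold on the miR-551a array. HOXB6, detected on the miR-551a array only, was at least 1.84-fold higher there than in Ls-Parental on that scale, and 1.72-fold higher both without background correction and in the authors' processed values. Its measured difference of 1.63 passes 2-fold only by a value below background. Without background correction, HOXB8 was 3.69-fold and HOXB5 3.57-fold higher with miR-483, and 4.46-fold and 3.69-fold higher with miR-551a. The authors' processed values put HOXB8 at 3.78-fold with miR-483 and 4.53-fold with miR-551a. In all, 3 of 4 detected HOXB genes were at least 2-fold higher with miR-483, where 3.16% of all 9973 genes were, and 0 were at least 2-fold lower, where 2.99% were. With miR-551a 4 of 5 were at least 2-fold higher by measured value, HOXB6 among them, where 3.24% of all 9940 genes were, and 0 were at least 2-fold lower, where 3.67% were. HOXB1 differed by -0.19 with miR-483 and by -0.10 with miR-551a. Within each of these comparisons HOXB8 had the largest difference, HOXB5 the next and HOXB7 the smallest of the 3 bright genes, and the Ls-Parental values of HOXB8 and HOXB5 lie near the detection limit.

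**Figure D2:**
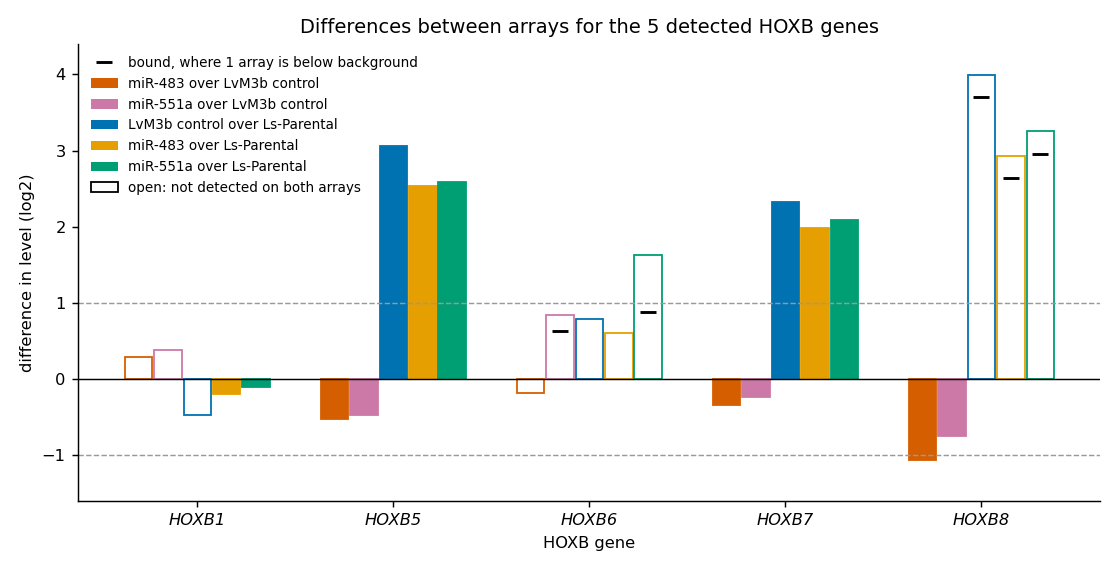
Log2 difference of the 5 HOXB genes detected on at least 1 array, for each comparison named in the key (first array minus second). Open bars have an array below background, and dashed lines mark 2-fold. The black mark is the bound where 1 of the 2 arrays was detected. HOXB1 has no mark, since its detected level did not exceed the other array's lowest detected level. HOXB5, HOXB7 and HOXB8 are higher on each LvM3b array than in Ls-Parental and lower with either microRNA than in the LvM3b control.

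The comparisons of each microRNA with the LvM3b control ask which messenger RNAs are lower when that microRNA is over-expressed. HOXB8 was 2.09-fold lower with miR-483 (log2 difference -1.06), HOXB5 1.45-fold lower (-0.53) and HOXB7 1.27-fold lower (-0.35). One HOXB gene of the 4 detected, HOXB8, was at least 2-fold lower, where 0.31% of all 9673 genes were. HOXB8 missed 2-fold without background correction (1.91-fold lower) and in the authors' processed values (1.92-fold lower). At least as far down as HOXB8 were 27 of the 9673 genes, as HOXB5 215 and as HOXB7 616. HOXB1 differed by 0.29 but was below background in the LvM3b control. No HOXB gene was at least 2-fold higher (0.331% of all genes). The median over the 4 detected HOXB genes was -0.44, beside 0.01 over all genes tested. Since the cluster was chosen partly for the lower HOXB8 level with miR-483, these counts and positions describe it and test nothing.

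With miR-551a the same 3 bright genes were lower by less than 2-fold. HOXB8 was 1.67-fold lower (-0.74), HOXB5 1.39-fold lower (-0.48) and HOXB7 1.18-fold lower (-0.23). HOXB6 was above the detection limit of the control array by at least 1.54-fold on the background-corrected scale (measured difference 0.85). It was 1.37-fold higher without background correction and 1.35-fold higher in the authors' processed values. HOXB1 differed by 0.38 with the control again below background. Among the 5 HOXB genes above background on either array, 0 reached 2-fold lower, where 0.364% of all 9619 genes did, and 0 reached 2-fold higher, where 0.218% did. Genes at least as far down as HOXB8 numbered 100, as HOXB5 363 and as HOXB7 1437. The median over the HOXB genes was -0.23, beside 0.01 over all genes tested. Both microRNA comparisons use the same control array, so their likeness is not counted as a result, and a high reading of HOXB5, HOXB7 and HOXB8 on that 1 array cannot be told apart from a lower level with both microRNAs. Set directly against each other, without the control array, miR-483 minus miR-551a gave log2 differences of -0.05 for HOXB5, -0.11 for HOXB7, -0.32 for HOXB8 and -0.10 for HOXB1. HOXB6, below background on the miR-483 array and counted through its miR-551a level alone, was 2.04-fold lower by measured value and at least 1.81-fold lower against the detection limit on the background-corrected scale. It was 1.45-fold lower without background correction and 1.43-fold lower in the authors' processed values. The count of 1 HOXB gene of 5 at least 2-fold lower by measured value, where 0.0923% of all 9753 genes were, is this gene alone and rests on its undetected value. At least 2-fold higher were 0, where 0.277% of all genes were.

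The genes next to the cluster were less than 2-fold apart. Of the 12 nearest genes with a named probe, 6 on each side, 7 were detected. UBE2Z, a ubiquitin-conjugating enzyme, was among the brightest and differed by -0.04 between the LvM3b control and Ls-Parental. The 7 ranged from -0.43 (SNF8, a subunit of the endosomal ESCRT-II complex) to 0.34 (ATP5MC1, an ATP synthase subunit) between the LvM3b control and Ls-Parental. They ranged from -0.37 (NFE2L1, a transcription factor of proteasome genes) to 0.18 (CBX1, a heterochromatin protein) with miR-483, and from -0.27 to 0.25, for the same 2 genes, with miR-551a. In these comparisons 0 of the 7 were 2-fold apart. Of all genes tested, 3.07% were at least 2-fold higher and 2.74% at least 2-fold lower in the LvM3b control than in Ls-Parental. Against the control, at most 0.364% were so in either direction with a microRNA. With such shares a count of 0 among 7 genes says little. Within the cluster, PRAC1 and PRAC2, which lie beside HOXB13 and are known as prostate and distal colon transcripts, were not detected on any array. HOXB4 and HOXB9, the HOXB genes on either side of the bright stretch, differed by -0.03 and 0.12 between the LvM3b control and Ls-Parental, both below background.

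**Figure D3:**
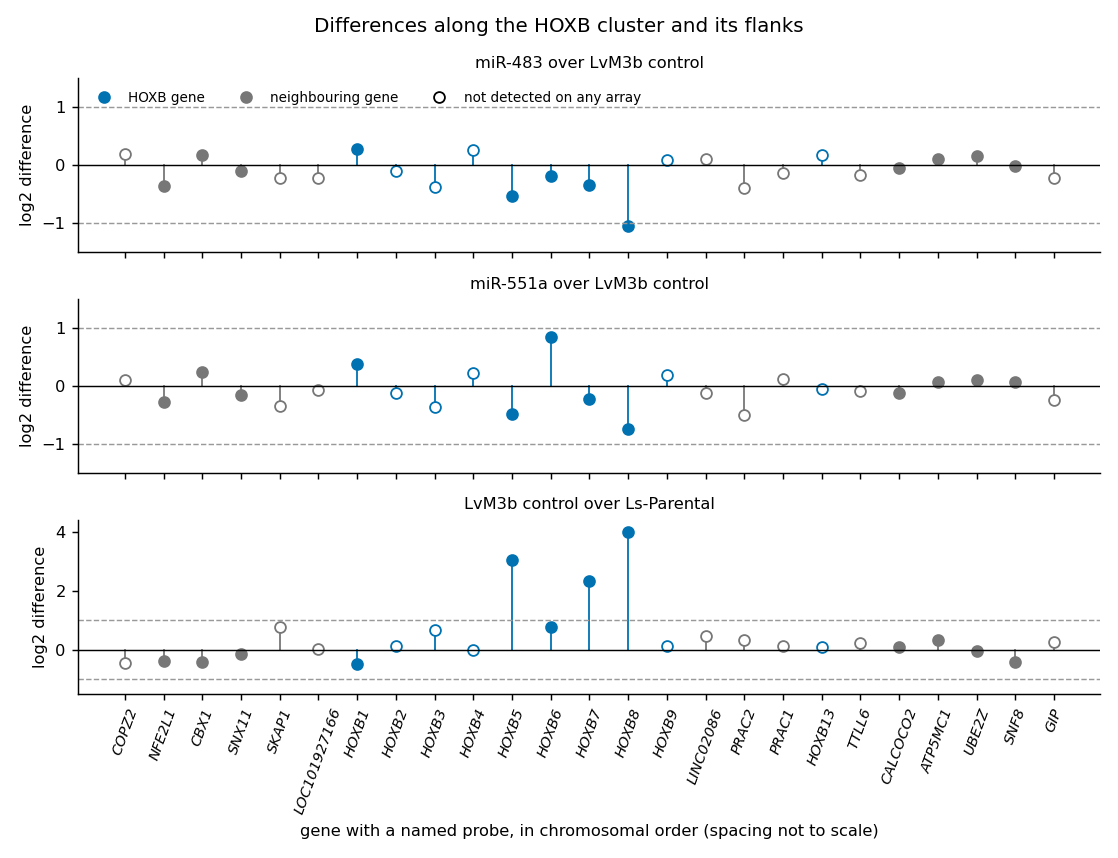
Log2 difference of each gene with a named probe along the HOXB cluster and its flanks, in chromosomal order, for miR-483 over LvM3b control, miR-551a over LvM3b control and LvM3b control over Ls-Parental. Open points were detected on none of the arrays and dashed lines mark 2-fold; the differences past 2-fold are those of HOXB8 with miR-483 and of HOXB5, HOXB7 and HOXB8 in the LvM3b control.

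Few genes of the HOXC and HOXD clusters were detected on any array, 1 of 9 HOXC genes and 2 of 9 HOXD genes. Over all 18665 genes with a named probe, 10090 outside the HOXB cluster were. Of 11 HOXA genes only HOXA2 had a named probe here, and it was detected on all 4 arrays, so the signal of the other HOXA genes was not read. HOXD13, a gene of the tail end of its cluster, had log2 levels of 7.52 with miR-483, 7.75 with miR-551a, 7.66 in the LvM3b control and 7.47 in Ls-Parental. HOXD12 differed by 0.57 between the LvM3b control and Ls-Parental, HOXC11 by 0.52 and HOXA2 by -0.11. Without background correction these values were 0.34, 0.29 and -0.07 in that order. A second HOXA2 probe, detected on all 4 arrays, differed the other way, by 0.25. With miR-483 these genes were all below the control, HOXD13 by -0.14, HOXD12 by -0.16, HOXA2 by -0.34 and HOXC11 by -0.45. With miR-551a they differed by 0.09 for HOXD13, 0.15 for HOXD12, -0.32 for HOXA2 and -0.09 for HOXC11. The second HOXA2 probe differed by -0.19 with miR-483 and by 0.05 with miR-551a. In each of the 5 comparisons 0 of these 4 genes were 2-fold apart. At most 3.67% of all genes were so in either direction, and with such shares a count of 0 among 4 says little.

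HOX proteins bind DNA with cofactors of the TALE homeobox class, of which 3 of 8 with a named probe were detected. PBX2 and PBX4 differed by 0.11 and -0.04 between the LvM3b control and Ls-Parental. Caudal and other intestinal transcription factors had 8 of 10 detected, 4 higher and 4 lower in the LvM3b control than in Ls-Parental. Their median was -0.06, and 0 differed by 2-fold, where 3.07% of all genes were higher and 2.74% lower by 2-fold. CDX1 differed by 0.03 and FOXA1, a pioneer factor, by -0.16. CDX2, the caudal factor of the intestine, differed by 0.59; it was chosen after its value was seen.

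Retinoic acid is a known inducer of the head-end HOXB genes, and 10 of 18 genes of its pathway with a named probe were detected. Between the LvM3b control and Ls-Parental, ALDH1A3 was 2.13-fold higher and ALDH1A1 2.07-fold lower, both being enzymes that make retinoic acid, and the list's median was 0.03. Without background correction ALDH1A3 was 1.74-fold higher and ALDH1A1 1.99-fold lower, both short of 2-fold. On the background-corrected scale a second detected probe differed by 0.80 for ALDH1A3, short of 2-fold, and by -1.08 for ALDH1A1. Polycomb genes, whose products keep HOX genes silent, had 25 of 28 detected, 10 higher and 15 lower, with a median of -0.03. CBX6, a chromodomain subunit, was at least 2.39-fold higher in the LvM3b control, at least 1.91-fold higher with miR-483 and at least 3.11-fold higher with miR-551a than in Ls-Parental. Without background correction the CBX6 values were 1.98-fold, 1.71-fold and 2.38-fold in that order. Trithorax and demethylase genes, which oppose Polycomb, had 3 of 13 detected members higher and 10 lower, with a median of -0.06. That median lies within the quartiles of all genes tested, -0.24 to 0.21, whose median was -0.01. By 2-fold 0 of this list differed, where 3.07% of all genes were higher and 2.74% lower. DPY30 and PSIP1, bright members of that list, both differed by -0.02. A second DPY30 probe, detected on both arrays, differed by 0.39, and a second PSIP1 probe, detected on neither, by 0.55. Against the control, 0 members of the cofactor, caudal, retinoic acid, Polycomb and Trithorax lists were 2-fold apart with either microRNA. Of all genes, at most 0.364% were so in either direction. The medians of these lists were 0.13, 0.14, 0.11, 0.00 and 0.17 with miR-483, and -0.11, 0.15, 0.08, -0.03 and 0.10 with miR-551a.

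Genes reported in other cell lines as targets of HOX proteins were also read, 8 of 16 with a named probe being detected. PTGS2, the inducible cyclooxygenase, was at least 4.42-fold lower in the LvM3b control than in Ls-Parental. On the miR-483 array it was 3.84-fold lower, and on the miR-551a array at least 5.06-fold lower. Without background correction PTGS2 was lower by 3.04-fold in the LvM3b control, by 2.52-fold on the miR-483 array and by 2.95-fold on the miR-551a array. VEGFA, the vascular growth factor, differed from Ls-Parental by -0.46 in the LvM3b control, by -0.82 with miR-483 and by -1.11 with miR-551a. With miR-551a it was short of 2-fold without background correction (1.94-fold lower) and in the authors' processed values (1.79-fold lower). A second detected VEGFA probe differed by only -0.09 between the LvM3b control and Ls-Parental. The list as a whole split 4 higher and 4 lower between the LvM3b control and Ls-Parental, with a median of 0.05. Against the LvM3b control its median was -0.08 for miR-483 and -0.10 for miR-551a. In these comparisons 0 members were 2-fold apart, where at most 0.364% of all genes were so in either direction.

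Genes with a pattern over the 4 arrays most like that of HOXB5 were found by the Euclidean distance between log2 levels centred on each gene's mean, among 10090 other genes above background on 1 array or more. PPP2R2C, a regulatory subunit of protein phosphatase 2A, was nearest, at a distance of 0.198. EDAR, the ectodysplasin receptor, followed at 0.204, CRYBB1 at 0.285 and CRYBA4 at 0.312, both lens crystallin genes, and AK4, a mitochondrial adenylate kinase, at 0.33. HOXB7 lay at 0.542 and HOXB8 at 0.69 from HOXB5, farther than these 5 genes. Nearest to the mean pattern of HOXB5, HOXB7 and HOXB8 were PPP2R2C, EDAR, CRYBA4, ANGPT1, a ligand of the TIE2 receptor (0.351), and CRYBB1. Each of these genes is low on the Ls-Parental array, and with 4 arrays the likeness rests mostly on that 1 array.

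**Figure D4:**
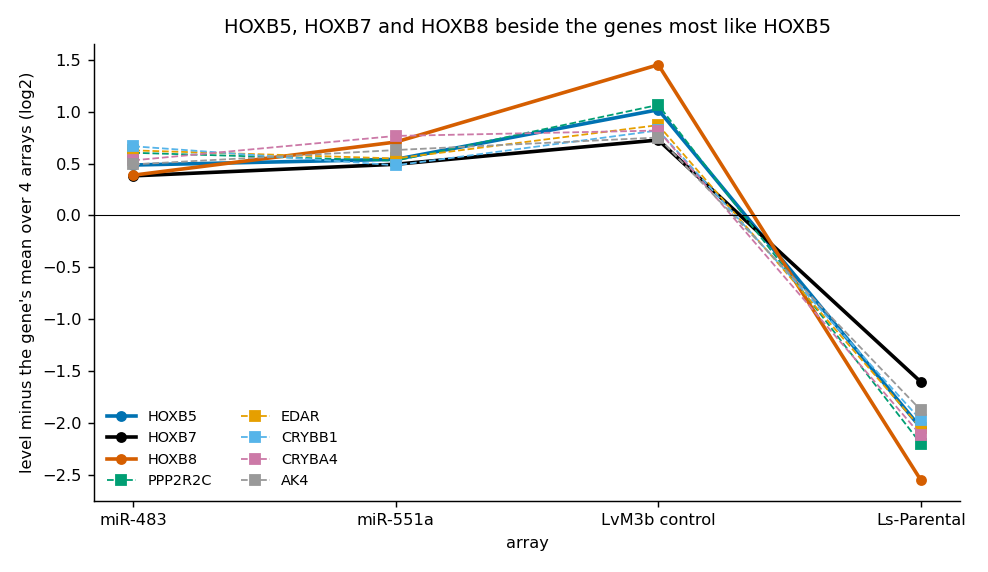
Log2 level minus the gene's mean over the 4 arrays, for HOXB5, HOXB7 and HOXB8 (solid lines) and the 5 genes nearest to HOXB5 (dashed lines). The genes are above their mean on the miR-483, miR-551a and LvM3b control arrays and lowest on the Ls-Parental array, and HOXB8 has the widest span.

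Colon epithelial markers were present throughout, with 11 of 12 detected on each LvM3b array and 12 on Ls-Parental, KRT20 being the exception in LvM3b. HOX genes are also active in connective tissue, so fibroblast markers were read beside the HOXB result. Of 9, 3 were detected on each LvM3b array and 1 on the Ls-Parental array. The summed deposited signal of all 9 was 1413.1 to 1577.5 on the LvM3b arrays and 1123.5 on Ls-Parental. Each summed signal given here takes every marker of the list with a probe, detected or not, and includes the background. For scale, the median probe signal was 103.6 to 115.4 per array. LUM was at least 4.97-fold and COL3A1 at least 1.41-fold higher in the LvM3b control, against 2.88-fold and 1.88-fold without background correction. COL1A1, COL1A2, DCN, POSTN, PDGFRB and THY1 were not detected on any array. Of 9 immune and endothelial markers with a probe, 1 or 2 were detected per array. CD14 was at least 4.26-fold lower (3.56-fold without background correction) and LYZ 5.78-fold lower (-2.53) in the LvM3b control. A second LYZ probe, detected on both arrays, differed by less, -1.32. A second CD14 probe, detected on neither, differed by -0.28. Summed over the immune and endothelial markers, the signal was 1491.5 to 1716.7 on the LvM3b arrays and 4574.4 on Ls-Parental. On Ls-Parental the detected ones were CD14 and LYZ, with log2 levels of 8.48 and 11.91. PTPRC and HLA-DRA stayed below background on the 4 arrays. Of 6 hepatocyte markers, 1 was detected on each LvM3b array and 2 on Ls-Parental; SERPINA1 was 2.79-fold lower in the LvM3b control, FGG was not well above background there, and ALB was not detected on any array. The summed hepatocyte signal was 716.7 to 799.9 on the LvM3b arrays and 1068.5 on Ls-Parental. The part of these markers in the HOXB differences was not tested.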

How the data were processed

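Messenger RNA was measured on Illumina bead arrays in 4 cultures, 1 array per group, grouped by title and genotype label. The members, gene lists and comparisons were chosen with earlier results of these data known. Per the file headers, the authors deposited a probe signal for each array, an intensity that is linear and was not normalized between arrays, together with a Detection score from 0 to 1. The score is high for bright probes, so 1 minus it served as the detection p. A second deposited table of intensity values differs from the first by a constant factor on each array (1.03 for miR-483, 1.11 for miR-551a, 1 for the LvM3b control, 1.09 for Ls-Parental), as found from the values. Each median is then 115.4. The sources used here do not name the authors' software, and the files hold no bead errors.

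Log2 levels were computed with neqc of limma 3.58.1 (R 4.3.3), which applies a normexp background correction with an offset of 16 and quantile normalization. Python 3.11.15 did the rest. Detected means a detection p under 0.01. Probes were named by the platform annotation, updated through RefSeq GRCh38.p14 (27578 with 1 gene, 27541 of them matched, 13 with several genes and 21212 with none), and a gene was read from its brightest probe. In each comparison, genes above background on either array were counted at 2-fold. Where only 1 array was above background, the bound is the bright level minus the dim array's lowest detected level, or minus the gene's dim level if that is higher, on the background-corrected scale. No bound was given where this difference was not positive. There was no test. The steps were tested on simulated data. On each array 13861 to 14628 probes were detected, and Pearson's r over all probes was 0.993 to 0.994 between LvM3b arrays and 0.985 to 0.986 with Ls-Parental.

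The genes named are all HOXB members, from each list at most 4 genes past 2-fold per comparison or 2 bright ones, and the 5 genes nearest in pattern. CDX2, the flanking genes at the ends of the range (SNF8, NFE2L1, CBX1), PRAC1, PRAC2 and the undetected markers fall outside that rule and were named after their values were seen. The comparison of miR-483 with miR-551a was added after the data were seen. Alternatives were no background correction, the authors' processed values, an offset of 50, median scaling, the mean of all probes and a detection p under 0.05.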

Additional observations from a re-analysis of the deposited data

How the results depend on the processing

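Each of the 5 comparisons was recomputed under 6 alternatives, and in 58 of 60 cases the number of HOXB genes at least 2-fold higher or lower stayed within 1.5 times that reported. The exceptions concern HOXB8 with miR-483. There the count of genes at least 2-fold lower was 0 with no background correction and with the authors' processed values, in place of 1. Inside that margin, the count at least 2-fold higher for miR-551a over Ls-Parental fell from 4 to 3 under the same settings. HOXB6 was 1.72-fold higher there. Each count reported as 0 stayed 0, and a margin of 1.5 times says little about those cases. In those 5 comparisons no log2 difference of a detected HOXB gene changed sign under the 6 alternatives. The mean of all probes could not change these differences, since each detected HOXB gene has 1 probe. A detection p under 0.05 leaves the levels as they are, so it could not change them either. Between the LvM3b control and Ls-Parental, HOXB8 ranged from 7.05-fold to 15.9-fold, HOXB5 from 4.95-fold to 8.47-fold and HOXB7 from 4.005-fold to 5.24-fold, each lowest with no background correction. On the log2 scale HOXB6 with miR-551a ranged from 0.78 to 1.63 over Ls-Parental and from 0.43 to 0.85 over the LvM3b control. For miR-483 against miR-551a, recomputed under the same 6 alternatives after the data were seen, the count of HOXB genes at least 2-fold lower (1, HOXB6) was 0 with no background correction, 0 with the authors' processed values, 0 with an offset of 50 and 0 with median scaling. There median scaling also turned the sign of the HOXB5 difference, to 0.03 in place of -0.05. Median scaling and the authors' processed values put the median of all genes at 0.07 to 0.16 over Ls-Parental, in place of -0.01 to 0.00, so HOXB differences there are that much smaller relative to other genes. No paired analysis was possible because each group has 1 array. Signal over background limits HOXB1, HOXB6 and, in Ls-Parental, HOXB5 and HOXB8.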
